A study of Mus musculus with 35 samples.

Results

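Fatty acid synthesis and cholesterol synthesis are described here through 39 named genes of whole mouse lung, out of 57186 genes in the count table. They were taken by gene symbol and not filtered by their values, though earlier results of these data were known when they were chosen. They comprised 16 enzymes and cofactors of fatty acid, desaturation and triglyceride synthesis, 18 enzymes and carriers of the sterol pathway and 5 regulators. All 39 passed the filter on low counts, as did 20606 genes in all. RNA came from whole lungs of 35 mice, either RORaf/f, the control genotype, or RORaf/fIl7riCre, called KO, in which a Cre recombinase from the Il7r locus acts on a floxed Rora gene in cells with present or past Il7r expression. Each library was read as 1 mouse. Both genotypes therefore carry the floxed Rora allele, and the control label names no Cre, so loss of Rora and the Cre itself cannot be told apart. Mice of each genotype were untreated or had received naphthalene, which injures airway club cells, and carry a day label of 2, 5 or 7. The 12 groups held 3 mice each, except KO mice at day 7 after naphthalene, of which there were 2. The series gives an age of 14 days and no separate age for each day label.

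Fatty acids are built from acetyl-CoA by acetyl-CoA carboxylase (Acaca) and fatty acid synthase (Fasn), lengthened by elongases, and desaturated by stearoyl-CoA desaturases (Scd1, Scd2) and fatty acid desaturases (Fads1, Fads2). Cholesterol is built through mevalonate, isoprenoid and squalene intermediates in a long series of enzymes. Transcription of both routes is driven by SREBP proteins, encoded by Srebf1 and Srebf2, which SCAP escorts from the endoplasmic reticulum and INSIG retains there when sterols are plentiful. SREBP-1 is known mainly for fatty acid genes and SREBP-2 for sterol genes. In the lung, alveolar type 2 cells make fatty acids for the phospholipids of surfactant.

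Library totals ran from 10696690 to 21062713 counts, with a median of 16159028 counts. Changes are log2 differences of group means with their standard error (SE) from 1 edgeR fit of all libraries, and a gene is said to be called, or to have risen or fallen, where its p adjusted over all 20606 genes was under 0.05. Rora itself lay between 32.1 and 53.4 CPM (counts scaled to a common library size) in the 18 control mice and between 25.2 and 64.0 CPM in the 17 KO mice, a gene-level count over all cells of the lung, and its log2 change in KO mice was 0.14 ± 0.09 (SE; adjusted p = 0.398). Such a count does not test the deletion in the cells that express Il7r. The library of untreated control replicate 1 at day 5 stood apart, with 158.6 CPM of the microglia gene P2ry12 against a median of 2.20 CPM, so the main day 5 results are also given without it. The library of replicate 1 of the KO mice at day 5 after naphthalene differed from its group in the genes described here. Scd1 was lowest in untreated control replicate 3 of day 2 (196 CPM) and untreated control replicate 2 of day 5 (234 CPM). Both belong to reference groups of the naphthalene comparisons. A letter in the library names of the labels differed between treated and untreated libraries at days 2 and 5 and between untreated day 7 and the other untreated libraries, so whatever the letter stands for cannot be told apart from those comparisons. All libraries of day 7 share 1 letter.

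Upstream sequences were looked up in RefSeq's table for build GRCm38.p6, which held 30 of the 39 genes. Fads1, Scd1, Fdps, Dgat1, Dgat2, Sqle, Scd2, Fdft1 and Stard4 are without an entry. In the 250 bases before a start site, the letters CCAAT (the box bound by the factor NF-Y) were found on either strand in 25 of 30 genes, against 37.5% of 27025 genes in that table. All 14 sterol enzymes with an entry held it, as did 7 of 11 fatty acid enzymes and 4 of 5 regulators. GGGCGG, the GC box, was found in 24 of 30 genes against 35.4% of all genes. The E-box CACGTG was found in 7 of 30 against 6.86%, and the sterol response element TCACNCCAC in 2 of 30 (Hmgcs1 and Mlxipl) against 1.22%. All 4 patterns were searched on both strands and a match is only a description of letters. The 150 bases before the start site are printed 5′ to 3′ on the gene's own strand, with each CCAAT or its complement ATTGG in capitals, because these genes carry the changes described in the results. The first 4 were called higher at day 5 after naphthalene, namely Fasn (chr11:120824548-120824697, minus strand), Ebp (chrX:8193513-8193662, minus strand), Fads2 (chr19:10101504-10101653, minus strand) and Lss (chr10:76531455-76531604, plus strand). The last 4 are sterol enzymes that were higher in untreated mice of day 7 than of day 2, namely Idi1 (chr13:8885456-8885605, plus strand), Msmo1 (chr8:64733579-64733728, minus strand), Nsdhl (chrX:72918371-72918520, plus strand) and Hmgcs1 (chr13:119690201-119690350, plus strand). These last 4 are examples, not the 4 of smallest p. Sc5d and Hsd17b7, not printed, had smaller adjusted p (edgeR, 0.00253 and 0.0038) than Hmgcs1 (0.0181).
Fasn: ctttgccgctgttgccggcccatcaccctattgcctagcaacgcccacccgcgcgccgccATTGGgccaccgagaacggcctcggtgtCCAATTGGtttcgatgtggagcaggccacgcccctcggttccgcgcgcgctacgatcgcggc
Ebp: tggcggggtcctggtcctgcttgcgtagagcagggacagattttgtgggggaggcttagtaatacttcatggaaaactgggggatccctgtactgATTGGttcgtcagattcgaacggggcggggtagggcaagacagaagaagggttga
Fads2: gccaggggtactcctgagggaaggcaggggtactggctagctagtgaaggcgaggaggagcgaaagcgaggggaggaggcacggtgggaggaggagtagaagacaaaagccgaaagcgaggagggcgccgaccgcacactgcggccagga
Lss: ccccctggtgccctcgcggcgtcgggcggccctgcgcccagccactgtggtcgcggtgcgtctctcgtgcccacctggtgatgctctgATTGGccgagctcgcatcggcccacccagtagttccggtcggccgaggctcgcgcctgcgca
Idi1: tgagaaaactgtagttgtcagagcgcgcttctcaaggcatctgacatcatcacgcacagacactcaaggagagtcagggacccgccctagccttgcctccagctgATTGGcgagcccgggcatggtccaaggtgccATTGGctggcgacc
Msmo1: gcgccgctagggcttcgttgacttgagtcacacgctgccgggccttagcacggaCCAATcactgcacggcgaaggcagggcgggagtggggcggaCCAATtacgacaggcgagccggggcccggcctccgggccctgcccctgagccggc
Nsdhl: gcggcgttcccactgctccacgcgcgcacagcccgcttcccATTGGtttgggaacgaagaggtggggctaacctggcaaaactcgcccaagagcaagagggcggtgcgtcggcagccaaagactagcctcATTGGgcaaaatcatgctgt
Hmgcs1: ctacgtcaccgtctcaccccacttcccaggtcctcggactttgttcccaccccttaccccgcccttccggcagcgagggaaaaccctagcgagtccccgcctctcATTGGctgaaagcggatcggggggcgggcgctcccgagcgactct
Fads2 had no CCAAT in this stretch. Fasn had 3 matches on the 2 strands, of which a pair overlapped, and Idi1, Msmo1 and Nsdhl had 2 each. The entry of Acaca is not printed, because its last bases before the start resemble the end of an intron and it may not be a promoter. It holds none of the CCAAT matches, and without it the counts for CCAAT are 25 of 29 genes and 7 of 10 fatty acid enzymes.

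At day 5 after naphthalene the lung held more mRNA for 7 of the 16 fatty acid enzymes, and Scd1, which places the double bond in stearic and palmitic acid, rose most. Averaged over the genotypes, 10 of the 39 genes rose and none fell, where 7.16% of all genes tested were called and 4.34% were called higher. The 10 comprised 7 of 16 fatty acid enzymes (Scd1, Scd2, Fasn, Acaca, Elovl1, Fads2 and Me1), 3 of 18 sterol enzymes (Fdps, Lss and Ebp) and none of the regulators. The median log2 change was 0.40 over the fatty acid enzymes and 0.18 over the sterol enzymes, against -0.02 over all genes. Without the library high in P2ry12 these medians were 0.42 and 0.22. The calls in that fit fell to 3 of 16 fatty acid enzymes and 1 of 18 sterol enzymes, where 3.31% of all genes were called. In whole-lung RNA, more cells of a type and more RNA per cell cannot be told apart.

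Scd1 measured 408, 234 and 476 CPM in untreated control mice of day 5 and 2189, 2020 and 2076 CPM in control mice at day 5 after naphthalene. In KO mice it measured 669, 400 and 396 CPM untreated and 651, 2724 and 2324 CPM after naphthalene. In control mice the groups were far apart, and in KO mice replicate 1 after naphthalene alone lay within the untreated range. The log2 change of Scd1 was 2.49 ± 0.41 in control mice (adjusted p = 0.00157), 1.96 ± 0.40 in KO mice (adjusted p = 0.00686) and 2.23 ± 0.29 on average (adjusted p = 8.24e-06), a 4.68-fold increase. Leaving out the control library with the high P2ry12 gave an average of 2.26 (adjusted p = 5.62e-05). The call in KO mice alone was lost without replicate 2 or 3 of the untreated KO mice or replicate 2 of the treated ones.

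**Figure D1:**
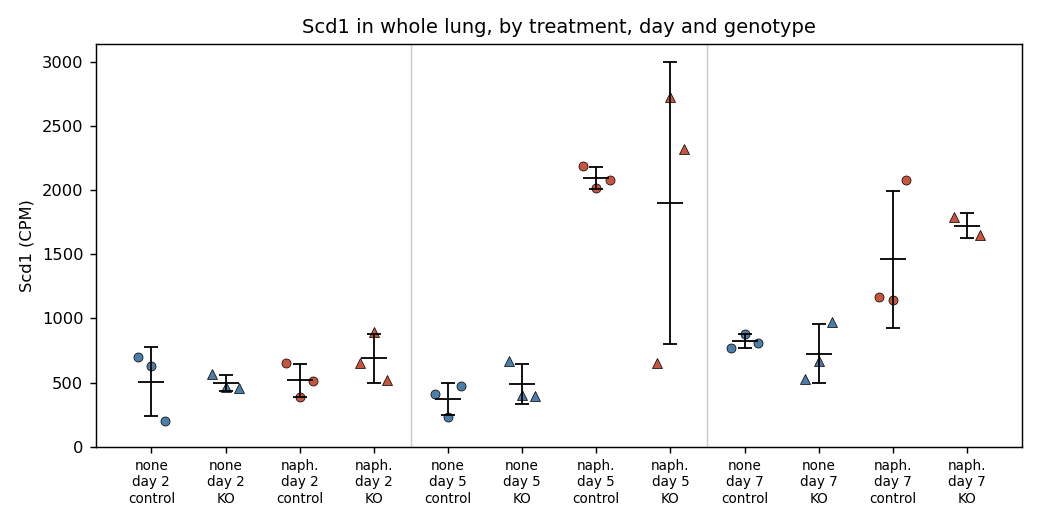
Scd1 in CPM (counts scaled to a common library size) in each of the 35 libraries, by day, treatment (blue none, red naphthalene) and genotype (circles control, triangles KO), with the mean and SD of each group. At day 5 after naphthalene 5 of 6 mice lie between 2020 and 2724 CPM, and 1 KO mouse lies at 651 CPM beside the untreated mice.

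Alveolar type 2 cells are known for lipid synthesis, and their markers also stood higher at day 5. Of 12 such markers 6 rose, where 4.34% of all genes did. All 12 had a log2 change above 0, with a median of 0.71. Their summed level was 9529 to 22630 CPM in the 6 untreated mice of day 5 (median 17140) and 16450 to 37610 CPM in the 6 treated mice (median 28160). Sftpc weighs most in this sum, with a mean of 13360 CPM, followed by Sftpb with 2928 CPM. The low mouse in the treated group was the KO mouse that was low in Scd1. Per 1000 CPM of the marker sum, Scd1 measured 36.4, 24.6 and 21.04 CPM in untreated control mice and 36.0, 25.5 and 18.9 CPM in untreated KO mice of day 5. After naphthalene the same ratio was 69.4, 76.0 and 83.5 in control mice and 39.6, 72.4 and 78.2 in KO mice. No treated mouse overlapped the untreated mice in this ratio, which was chosen after the values were seen. The gap was narrow, from 36.4 in the highest untreated to 39.6 in the lowest treated mouse. The part of alveolar type 2 cells in the Scd1 difference was not tested. The summed level of the other 15 fatty acid enzymes per 1000 CPM of marker sum was 84.4 to 126 in untreated mice and 75.0 to 96.0 in treated mice of day 5, with overlap; this is a sum, and single enzymes can differ from it. For the sterol enzymes that ratio was 21.96 to 56.2 in untreated and 16.4 to 31.9 in treated mice.

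**Figure D2:**
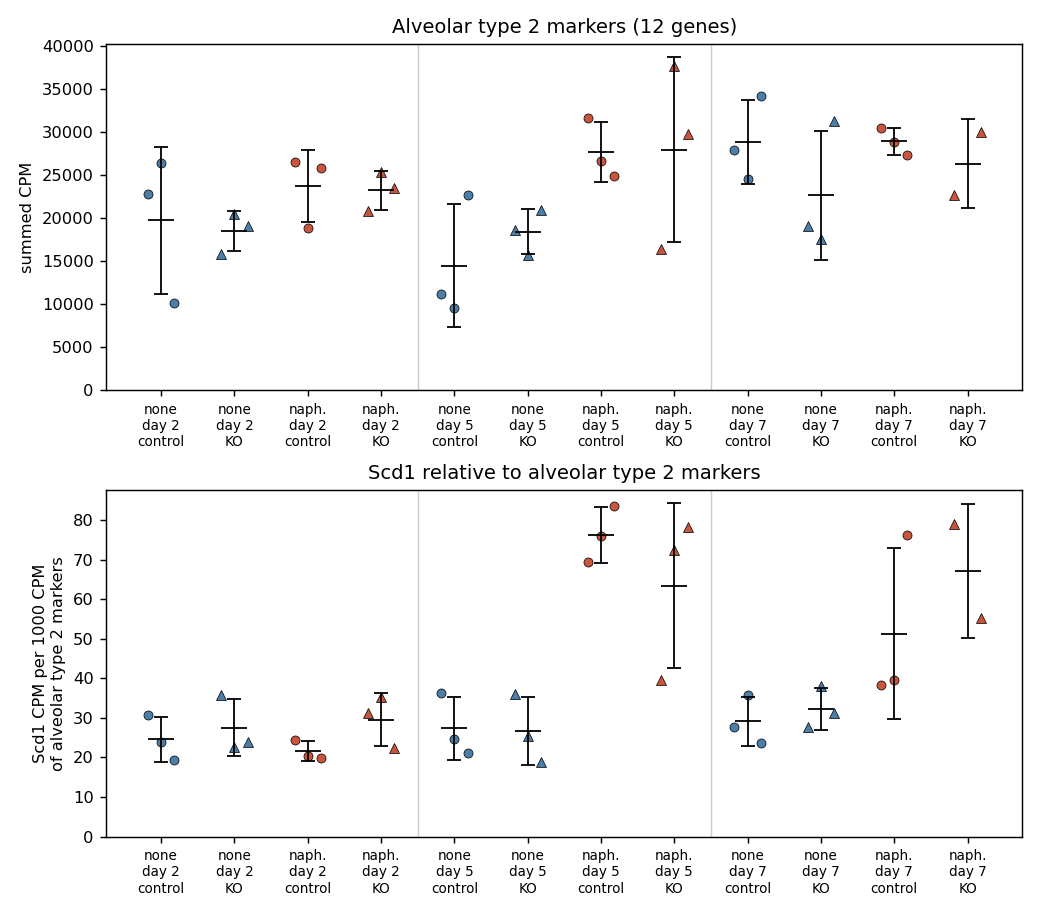
Summed CPM of 12 alveolar type 2 markers (upper panel) and Scd1 CPM per 1000 CPM of that sum (lower panel) in each library, with the mean and SD of each group; blue is untreated, red is naphthalene, circles are control and triangles KO mice. The marker sum overlaps between treatments at every day, while the ratio at day 5 lies at 18.9 to 36.4 untreated and 39.6 to 83.5 after naphthalene.

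Markers of other cell types moved as well, at a day when 4.34% of all genes rose. The summed alveolar macrophage markers (10 genes) were 408 to 524 CPM untreated and 555 to 1067 CPM after naphthalene at day 5, with no overlap, and 4 of the 10 rose. Car4 (mean 244 CPM, log2 change 0.07) and Chil3 (mean 229 CPM, log2 change 1.42) weigh most in that sum. The adipocyte markers summed to 79.0 to 131 CPM untreated and 88.2 to 138 CPM treated at day 5, and 1 of 9 tested was called, Cfd. Of these 9, 8 had a log2 change above 0, with a median of 0.58. Over all libraries Lipe, the most abundant, ranged from 29.3 to 113 CPM and Adipoq from 0.443 to 4.07 CPM, and Lep had no read in 9 libraries. Of 8 ciliated cell markers 6 rose at day 5 (Foxj1 by 1.43 ± 0.26), and of the club cell markers Scgb1a1 fell by 2.15 ± 0.19 and Hp rose by 0.71 ± 0.20. The part of these cells in the Scd1 difference was not tested.

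Within groups, after each group's mean was subtracted, Scd1 varied together with the other fatty acid enzymes. Over the 35 libraries Pearson's r was 0.90 (Spearman's rho 0.84), and 0.83 without the 2 libraries farthest from the median. With the alveolar type 2 marker sum r was 0.74 (rho 0.56), with the alveolar macrophage sum 0.48 (rho 0.40; 0.25 without 2 libraries), with the sterol enzymes 0.43 (rho 0.44), with the lipofibroblast sum 0.39 (rho 0.38) and with the adipocyte sum -0.37 (rho -0.45). The highest r with the alveolar type 2 sum belonged to Ebp (0.93), Fads2 (0.90), Fasn (0.86), Scd2 (0.86) and Acaca (0.84), whereas Msmo1 had -0.61, Tm7sf2 -0.54 and Elovl6 -0.53. The mean of the sterol enzymes had an r of 0.09 with that sum. These values describe libraries that share their depth and cell makeup and carry no test.

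Besides Scd1, the fatty acid enzymes with the smallest p at day 5 were Fasn and Acaca. Fasn, which assembles palmitate, was 133 CPM at the lowest, 154 at the median and 216 at the highest in the 6 untreated mice, and 188, 336 and 614 CPM in the 6 treated mice. Its log2 change was 1.06 ± 0.23 (adjusted p = 0.00379), and the mouse at 188 CPM was again KO replicate 1. Acaca, which makes malonyl-CoA, had values of 20.1, 27.7 and 33.4 CPM untreated and 30.7, 44.4 and 51.5 CPM treated, a log2 change of 0.65 ± 0.15 (adjusted p = 0.00686). In both genes the treated and untreated mice overlapped.

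Elovl1, an elongase of very long chains, measured 158, 182 and 210 CPM (lowest, median, highest) untreated and 229, 271 and 492 CPM treated, without overlap, and rose by 0.73 ± 0.20 on the log2 scale (adjusted p = 0.0269). Fads2, the delta-6 desaturase, measured 26.5, 41.2 and 50.1 CPM untreated and 41.7, 62.1 and 93.5 CPM treated (0.69 ± 0.20, adjusted p = 0.0387). Scd2, the desaturase related to Scd1, rose by 0.69 ± 0.22 (adjusted p = 0.0482), which lay just inside the threshold. Me1, the malic enzyme that supplies NADPH, rose by 0.40 ± 0.11 (adjusted p = 0.0253).

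The remaining fatty acid enzymes were not called on average. Fads1 had a log2 change of 0.45 ± 0.15 (adjusted p = 0.0684) and Acly, which makes acetyl-CoA from citrate, 0.41 ± 0.17 (adjusted p = 0.118), while Elovl6 and Acss2 had -0.03 each. Dgat1, which adds the last acyl chain of triglycerides, had the lowest value, -0.36 ± 0.16 (adjusted p = 0.147). In control mice alone Dgat1 was called lower, from 52.6, 60.1 and 34.1 CPM untreated to 26.9, 22.99 and 31.97 CPM treated (-0.84 ± 0.23, adjusted p = 0.0435). In KO mice it was 24.7, 30.2 and 36.5 CPM untreated and 41.6, 31.6 and 26.3 CPM treated, and the difference between the genotypes was not called (0.96 ± 0.32, adjusted p = 0.544). The Dgat1 call was lost in 5 of the 6 fits without 1 library, among them the fit without the library high in P2ry12 (-0.79, adjusted p = 0.208), and held without replicate 3 of the untreated control mice.

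Among sterol enzymes at day 5, Fdps, which makes farnesyl diphosphate, changed most. It measured 22.5, 27.3 and 33.3 CPM (lowest, median, highest) untreated and 31.3, 43.4 and 65.0 CPM treated (0.73 ± 0.15, adjusted p = 0.00323). Ebp, a sterol isomerase, rose by 0.52 ± 0.14 (adjusted p = 0.0232) and Lss, which closes the sterol ring, by 0.44 ± 0.13 (adjusted p = 0.0412). Idi1 (0.66 ± 0.24, adjusted p = 0.0795) and Dhcr7 (0.48 ± 0.17, adjusted p = 0.0776) did not reach the threshold. Hmgcs1, which opens the mevalonate route, had a value of -0.22 ± 0.16, Msmo1 -0.21 ± 0.18, Sc5d 0.03 ± 0.11 and the sterol carrier Stard4 -0.44 ± 0.16 (adjusted p = 0.0837). The sterol genes therefore lay on both sides of 0, with 14 of 18 above it.

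None of the regulators was called at day 5. Srebf2 had a log2 change of 0.37 ± 0.18 (adjusted p = 0.183), Srebf1 0.19 ± 0.21 and Mlxipl, the carbohydrate-responsive factor ChREBP, -0.53 ± 0.24 (adjusted p = 0.147). Mlxipl reached 11.5 CPM in the untreated control library with the high P2ry12, and its value was -0.29 without that library.

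Scd1, Fasn, Acaca and Fdps were called in all 12 fits that left out 1 library of day 5, and the other 6 genes in 3 to 6 of the 12. The count of 10 fell to 4 without untreated control replicate 1 (where 3.31% of all genes were called), untreated control replicate 2, treated control replicate 1 or treated KO replicate 2, and to 5 without untreated KO replicate 2 or treated KO replicate 3. Without treated KO replicate 1, the mouse low in Scd1, 15 genes rose and Stard4 fell, where 19.8% of all genes were called. Within a genotype, control mice had 2 calls (Scd1 higher, Dgat1 lower, background 2.39%). They became 14 without untreated control replicate 3 and 1 without any other library. The calls over all genes moved as well, from 23 to 3544 genes over these 6 fits. KO mice also had 2 calls, Scd1 and Fdps (background 1.32%, and 1.14% higher). These became 8 without treated KO replicate 1, where 4.38% of all genes were called. None was left without treated KO replicate 2 or untreated KO replicate 2 or 3, and 1 without either of the other 2 libraries.

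**Figure D3:**
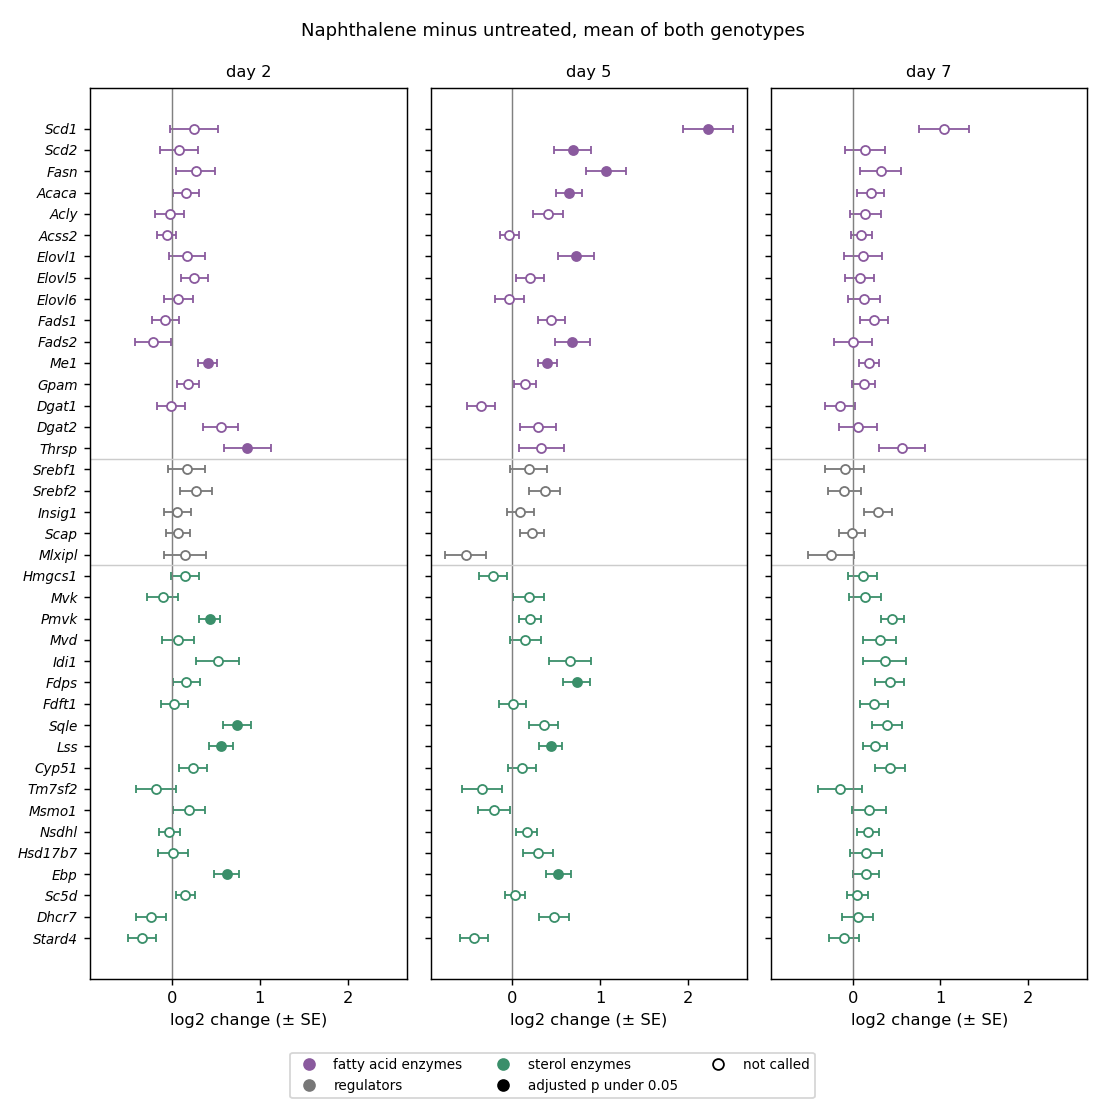
Log2 change after naphthalene with its standard error for each of the 39 genes at days 2, 5 and 7, as the mean of both genotypes, with purple for fatty acid enzymes, grey for regulators and green for sterol enzymes; filled points are called at an adjusted p under 0.05. Scd1 stands at 2.23 at day 5 and 1.04 at day 7, and filled points number 6, 10 and 0 in the 3 panels.

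The mean log2 CPM of each arm shows the same days side by side. The fatty acid arm changed by 0.20, 0.49 and 0.21 at days 2, 5 and 7 and the sterol arm by 0.17, 0.18 and 0.21. The difference between the arms was thus 0.02, 0.30 and 0.01. In control mice of day 5 it was 0.46 and in KO mice 0.15, and without Scd1 the average of day 5 was 0.19. These means carry no test, and when each library's arm was summarised by its median log2 CPM over genes instead of the mean, the difference at days 2 and 7 was -0.21 and -0.18. Without the library high in P2ry12 the day 5 difference was 0.25. The 3 treated control mice of day 5 had fatty acid means of 6.29 to 6.38, above the untreated range of 5.49 to 5.98, and treated KO mice ranged from 5.90 to 6.65 against 5.89 to 5.98 untreated.

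**Figure D4:**
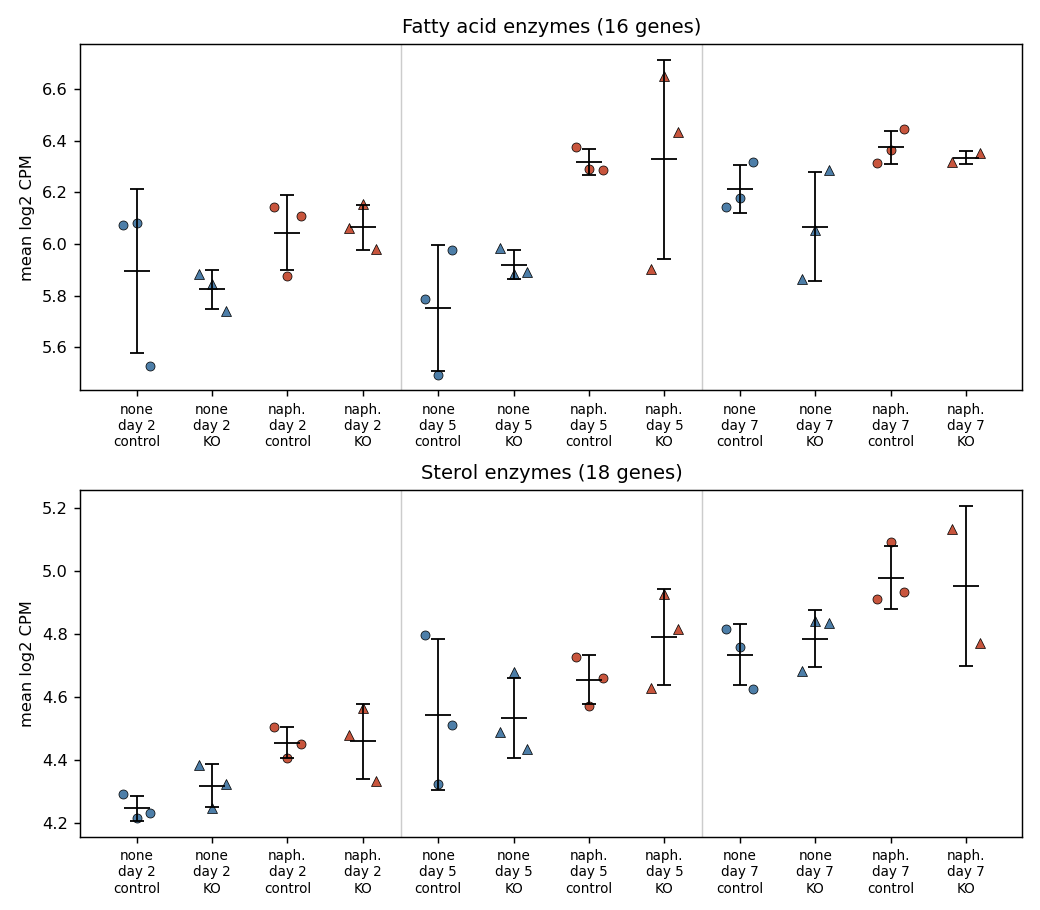
Mean log2 CPM over the 16 fatty acid enzymes (upper panel) and the 18 sterol enzymes (lower panel) in each library, by day, treatment and genotype, with the mean and SD of each group; the vertical axes do not start at 0. The sterol mean of untreated mice lies at 4.22 to 4.39 at day 2 and 4.63 to 4.84 at day 7.

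At day 2 after naphthalene 4 of 18 sterol enzymes and 2 of 16 fatty acid enzymes rose, and Scd1 was not among these 6. The median log2 change was 0.15 over the sterol enzymes and 0.17 over the fatty acid enzymes, against -0.04 over all genes. On average 6 of 39 were called, all higher (Me1, Thrsp, Pmvk, Sqle, Lss and Ebp), where 9.9% of all genes were called and 5.6% were called higher. Sqle, the squalene epoxidase, measured 11.4, 13.2 and 15.9 CPM (lowest, median, highest) in untreated mice of day 2 and 20.1, 21.9 and 26.3 CPM in treated mice. The groups did not overlap, and the log2 change was 0.74 ± 0.16 (adjusted p = 0.00234). Ebp went from 20.3, 30.5 and 38.5 CPM to 40.5, 44.8 and 56.3 CPM (0.62 ± 0.14, adjusted p = 0.00325). Lss went from 8.45, 12.1 and 13.8 CPM to 15.7, 16.5 and 19.8 CPM (0.56 ± 0.13, adjusted p = 0.00478). Neither gene overlapped between the groups.

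Me1 also lay apart at day 2, at 31.8 to 47.6 CPM untreated and 48.9 to 58.1 CPM treated (0.40 ± 0.11, adjusted p = 0.0139). Thrsp, a small nuclear protein of lipogenic tissue, was low, at 1.31 to 2.39 CPM untreated and 2.98 to 3.81 CPM treated (0.86 ± 0.27, adjusted p = 0.0369). Pmvk, the phosphomevalonate kinase, rose by 0.43 ± 0.12 (adjusted p = 0.0223) with overlapping groups. Me1, Sqle, Lss and Ebp were called in all 12 fits without 1 library of day 2, Pmvk in 7 and Thrsp in 2. Scd1 had a value of 0.25 ± 0.27 (adjusted p = 0.657), Scd2 0.08 ± 0.21, Fads2 -0.22 ± 0.20 and Stard4 -0.35 ± 0.16 (adjusted p = 0.187). Of the regulators Srebf2 had 0.27 ± 0.18 (adjusted p = 0.383). Srebf1 had 0.17 ± 0.21. Hmgcs1, at the start of the route, and Sc5d, near its end, had 0.15 each. Control mice alone had 3 calls (Me1, Sqle and Ebp; background 3.76%, and 2.57% higher) and KO mice none, with 4 at an unadjusted p under 0.05 (background 2.74%) and none by DESeq2. The count of 3 in control mice became 0 without treated control replicate 1 or 3, and 1 without untreated control replicate 2 or 3. None of Me1, Sqle and Ebp was called without untreated control replicate 3. The difference between the genotypes itself had no call.

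Other cell markers at day 2 moved strongly, where 9.9% of all genes were called and 5.6% were called higher. Of 8 club cell markers 4 fell and 1 rose, and Scgb1a1 fell by 3.77 ± 0.21 on the log2 scale (adjusted p = 6.03e-14). Of 8 ciliated cell markers 6 rose, whereas none of the 12 alveolar type 2 markers was called. Of 9 adipocyte markers tested, 3 were called, all higher, Lipe by 1.05 ± 0.18 (adjusted p = 9.67e-05). The summed alveolar macrophage markers were 368 to 414 CPM untreated and 604 to 816 CPM treated, without overlap. Among these 10 genes Chil3 rose by 2.50 ± 0.25 (adjusted p = 2.46e-08), Marco, Atp6v0d2, Mrc1 and Plet1 rose too, and the others were not called. Of the lipofibroblast markers only Lpl (1.57 ± 0.28) and Inmt (0.88 ± 0.16) were called. The mitochondrial share of counts was 0.752% to 1.53% in untreated and 1.63% to 2.57% in treated mice of day 2. The part of these in the sterol gene changes was not tested.

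At day 7 after naphthalene none of the 39 genes was called by edgeR on average, with 6 at an unadjusted p under 0.05 and none by DESeq2, where 0.374% of all genes were called and 0.335% higher. Scd1 still measured 1167, 1140 and 2077 CPM in treated control mice and 1793 and 1654 CPM in treated KO mice. In untreated mice of day 7 it measured 770, 879 and 811 CPM in control mice and 529, 669 and 976 CPM in KO mice, so that treated and untreated mice did not overlap. The log2 change of Scd1 was 1.04 ± 0.29, with an unadjusted p of 0.00111 and an adjusted p of 0.147. Per 1000 CPM of alveolar type 2 markers Scd1 was 23.8 to 38.2 untreated and 38.3 to 79.1 treated.

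The other 5 genes with an unadjusted p under 0.05 were Thrsp (0.57 ± 0.26) and 4 sterol enzymes. These were Pmvk (0.45 ± 0.13, adjusted p = 0.176), Fdps (0.42 ± 0.16), Cyp51 (0.42 ± 0.17) and Sqle (0.39 ± 0.17). Insig1 had a value of 0.29 ± 0.16, Dgat1 -0.15 ± 0.17, Tm7sf2 -0.15 ± 0.25 and Mlxipl -0.25 ± 0.26. The abundant Scd2 (0.14 ± 0.23), Hmgcs1 (0.11 ± 0.17), Sc5d (0.06 ± 0.12), Srebf2 (-0.09 ± 0.19) and Srebf1 (-0.09 ± 0.22) lay within 1 SE of 0. Over the sterol enzymes 16 of 18 values were above 0 with a median of 0.18, against -0.01 over all genes. Neither genotype alone had a call (background 0.0388% in control and 0.0728% in KO mice), with 5 genes each at an unadjusted p under 0.05 and none by DESeq2.

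The change of the naphthalene effect between days was tested itself. From day 2 to day 5 the effect on Scd1 grew by 1.98 ± 0.39 on the log2 scale (adjusted p = 0.0117), and Scd1 was the only one of the 39 genes called, where 0.67% of all genes were. Without the library high in P2ry12 the value for Scd1 was 2.01 (adjusted p = 0.0154). A second gene was called without treated KO replicate 2 or untreated control replicate 3 of day 2. Fads2 had a value of 0.90 ± 0.29 (adjusted p = 0.137) and Dhcr7 0.72 ± 0.24 (adjusted p = 0.165). From day 5 to day 7 none of the 39 genes and 0% of all genes were called by edgeR, with 5 of the 39 at an unadjusted p under 0.05 and none by DESeq2.

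Untreated mice were not level across the day labels, and 11 of 18 sterol enzymes were called between the first and last. Between day 2 and day 7, 16 of 39 genes rose and none fell, where 13.8% of all genes were called, 6.06% higher and 7.7% lower. They were 11 of 18 sterol enzymes (Hmgcs1, Idi1, Fdps, Fdft1, Sqle, Cyp51, Msmo1, Nsdhl, Hsd17b7, Sc5d and Dhcr7), 2 of 5 regulators (Srebf2 and Insig1) and 3 of 16 fatty acid enzymes (Elovl1, Dgat2 and Thrsp). The median log2 change was 0.52 over sterol enzymes and 0.19 over fatty acid enzymes, against 0.00 over all genes. The 12 risen genes with an upstream entry all held CCAAT, as did 13 of the other 18. From day 5 to day 7 it was 8 of 9 risen genes and 17 of the other 21. After naphthalene it was 5 of 5 and 20 of 25 at day 2, and 5 of 7 and 20 of 23 at day 5. Every sterol enzyme with an entry held CCAAT, so the box and the sterol arm cannot be told apart here. Of the 16 genes, 11 were called in all 12 fits without 1 library, and the least stable were Elovl1 (7 of 12) and Cyp51 (5 of 12). These untreated mice are also the reference of the naphthalene comparisons, which are therefore not independent of them.

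Dhcr7, which makes cholesterol in the last step of its branch, measured 17.9, 20.6 and 14.9 CPM in control and 14.0, 16.03 and 17.6 CPM in KO mice of day 2. At day 7 it measured 35.9, 35.2 and 36.9 CPM in control and 26.6, 25.7 and 42.5 CPM in KO mice. All mice of day 7 lay above all mice of day 2, and the log2 change was 1.01 ± 0.17 (adjusted p = 0.000257). Idi1, the isopentenyl diphosphate isomerase, had the largest change of the sterol enzymes, from 1.71, 3.22 and 6.38 CPM (lowest, median, highest) to 5.50, 8.07 and 10.0 CPM (1.18 ± 0.24, adjusted p = 0.00155). Its groups overlapped through 1 KO mouse of day 2.

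Sterol 4-alpha demethylation was represented by Msmo1 and Nsdhl. Msmo1 went from 19.8, 28.1 and 39.4 CPM to 36.5, 47.2 and 74.7 CPM (0.86 ± 0.19, adjusted p = 0.00238). Nsdhl went from 14.4, 16.98 and 17.8 CPM to 22.7, 24.2 and 26.98 CPM without overlap (0.56 ± 0.12, adjusted p = 0.00178). Sqle rose by 0.76 ± 0.16 (adjusted p = 0.00244), Hsd17b7 by 0.76 ± 0.17 (adjusted p = 0.0038), Fdps by 0.69 ± 0.15 (adjusted p = 0.00337) and Sc5d by 0.51 ± 0.11 (adjusted p = 0.00253). Hmgcs1 (0.55 ± 0.16), Fdft1 (0.53 ± 0.15) and Cyp51 (0.49 ± 0.16, adjusted p = 0.0435) lay closer to the threshold. The sterol genes not called included Lss (0.30 ± 0.13), Ebp (0.35 ± 0.14), Mvk (0.20 ± 0.18) and Stard4 (0.07 ± 0.16).

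Of the 5 regulators, 2 rose in the same mice. Srebf2, which encodes SREBP-2, went from 86.3, 121 and 170 CPM to 138, 218 and 307 CPM (0.91 ± 0.18, adjusted p = 0.00106). Insig1, itself a sterol-responsive gene, went from 25.5, 29.9 and 50.1 CPM to 39.9, 53.5 and 65.3 CPM (0.73 ± 0.15, adjusted p = 0.00216). Srebf1 had a value of 0.16 ± 0.21 and Scap -0.07 ± 0.14. Thrsp (1.40 ± 0.27, adjusted p = 0.000789) and Dgat2, the second triglyceride acyltransferase (0.76 ± 0.20, adjusted p = 0.0124), rose in the fatty acid arm, and Scd1 had a value of 0.62 ± 0.28 (adjusted p = 0.13).

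**Figure D5:**
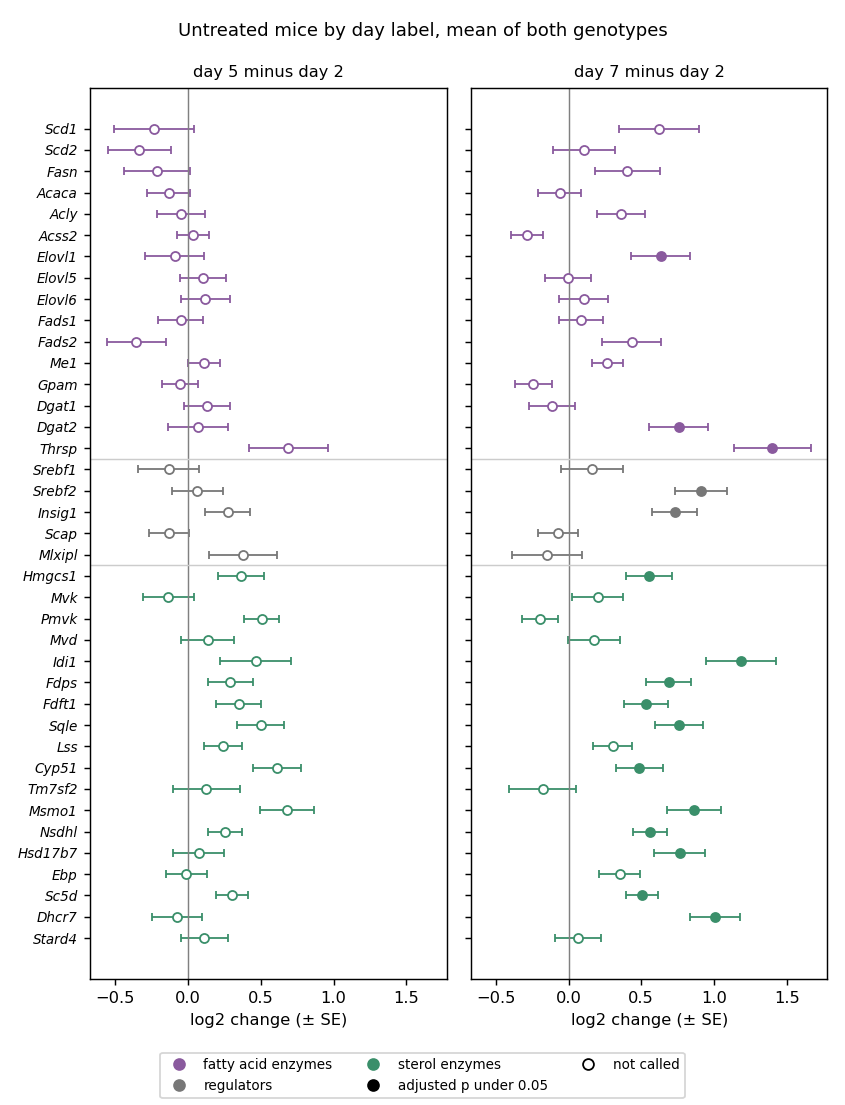
Log2 change between untreated mice of different day labels with its standard error, as the mean of both genotypes, for each of the 39 genes; colours mark fatty acid enzymes (purple), regulators (grey) and sterol enzymes (green), and filled points are called at an adjusted p under 0.05. No point is filled for day 5 minus day 2 and 16 are filled for day 7 minus day 2, the largest being Thrsp at 1.40 and Idi1 at 1.18.

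Day 5 lay between these ends in the mean log2 CPM of the sterol enzymes, but not for each gene, as Pmvk was highest at day 5. From day 2 to day 5 none of the 39 was called by edgeR (9 at an unadjusted p under 0.05, 3 by DESeq2, 3 by edgeR without control replicate 3 of day 2, and Pmvk alone, at 0.57 with an adjusted p of 0.0418, without the library high in P2ry12; background 0.476%), and the sterol median was 0.27 with 15 of 18 above 0. From day 5 to day 7, 11 genes rose and 2 fell, where 21.6% of the genes tested passed, 10.2% in the higher and 11.4% in the lower direction. The 10 called with the smallest p were Dhcr7 (1.08 ± 0.17), Pmvk, which fell by 0.70 ± 0.12 (adjusted p = 0.000322), Srebf2, Hsd17b7, Fads2, Elovl1, Dgat2, Scd1, Idi1 and Insig1. Without the library high in P2ry12, 12 rose and 2 fell, and the sterol enzymes that rose went from 3 to 5, with a median of 0.37 in place of 0.20. The 13 calls became 6 without control replicate 2 of day 5 or KO replicate 3 of day 7. Scd1 rose by 0.85 ± 0.28 (adjusted p = 0.0265), and its level per 1000 CPM of alveolar type 2 markers was 18.9 to 36.4 at day 5 and 23.8 to 38.2 at day 7.

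Markers of alveolar type 2, fat and club cells and the share of blood RNA also moved with the untreated days. From day 2 to day 7, 6.06% of all genes rose and 7.7% fell. Of 12 alveolar type 2 markers 2 rose and 1 fell (Abca3), 5 of 9 adipocyte markers rose (Cfd by 2.27 ± 0.42) and 6 of 8 club cell markers rose. From day 5 to day 7, when Scd1 and Fasn rose, 6 of 12 alveolar type 2 markers rose (Etv5 by 0.77 ± 0.20) and 5 of 9 adipocyte markers. Of all genes 10.2% rose between these days. The haemoglobin share of counts was 0.302% to 0.518% at day 2, 0.387% to 1.49% at day 5 and 0.702% to 2.14% at day 7, without overlap between days 2 and 7. Summed adipocyte markers were 64.8 to 115 CPM at day 2 and 80.2 to 163 CPM at day 7, and Adipoq stayed at or below 4.07 CPM in every library. The part of these cells, of blood, of mouse age and of the library letter in the sterol gene difference was not tested.

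Genotype gave no call. Averaged over the 6 combinations of treatment and day, no member was called by edgeR or DESeq2 between KO and control mice, with 8 at an unadjusted p under 0.05, and 0% of all genes were called. The smallest p belonged to Lss (0.25 ± 0.08, adjusted p = 0.298), and Scd1 had a value of 0.12 ± 0.16 (adjusted p = 0.739). Srebf1 had -0.33 ± 0.12 (adjusted p = 0.298). At a single combination of treatment and day no member was called either, with 0 to 5 at an unadjusted p under 0.05. The genotype difference in the naphthalene effect had no call at days 2, 5 or 7 by either tool, with 0, 5 and 1 genes at an unadjusted p under 0.05. For Scd1 at day 5 that difference was -0.53 ± 0.55 (adjusted p = 0.783), an error that leaves room for a difference of either sign.

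Other genes of lipid synthesis were listed by name, 30 in all, of which 29 were tested. On average 5 of 29 rose at day 2 (against 5.6% of all genes), 4 of 29 at day 5 (against 4.34%) and none of 29 at day 7 (against 0.335%), and none fell. Pnpla3, a lipase regulated with lipogenesis, rose by 1.80 ± 0.35 at day 2 (adjusted p = 0.000558), at a mean of 1.21 CPM. Hsd17b12, an enzyme of fatty acid elongation, rose by 0.77 ± 0.17 at day 5 (adjusted p = 0.00686). In untreated mice 7 of 29 rose from day 2 to day 7 (against 6.06% of all genes), among them Erg28, a scaffold of sterol demethylation (0.97 ± 0.13, adjusted p = 1.62e-05), and 1 fell, Mbtps1, the protease that cleaves SREBP (-0.36 ± 0.09, adjusted p = 0.0107).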

How the data were processed

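RNA from 35 whole mouse lungs had been extracted with Trizol and prepared with a Watchmaker Genomics mRNA kit, per the labels' protocols. The authors deposited a table of unnormalised counts per gene, which held whole numbers with differing library totals. The genome build GRCm39 and DESeq2 are named, without a role, per the submitters' processing notes. As for aligner, counter, annotation and strandedness, each is not given in the sources used here.

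Testing used edgeR 4.0.16 under R 4.3.3 (filterByExpr on the 12 groups, TMM scaling, 1 robust quasi-likelihood fit of group means with 23 residual degrees of freedom), and the CPM in the text use the TMM factors. Each of 24 comparisons is a two-sided contrast with Benjamini-Hochberg adjustment over all 20606 genes tested, and "called" means an adjusted p under 0.05. Changes are log2 with the standard error (SE) of the contrast. Arm means used log2 CPM with a prior count of 2. DESeq2 1.42.0, other scaling, filters and fits, and leaving out each library were alternatives. No source says how the replicates were obtained, so p-values measure the spread between these samples, and replicate pairs differed by more than sampling noise (chi-square per degree of freedom at least 8.80, 34 pairs). Tested on simulated data for the averaged day 5 effect (20340 genes), the fit recovered 82% of 2-fold and 100% of 4-fold changes; for control mice alone at day 5 it recovered 55% and 95%. 1 read equals 0.0487 to 0.0886 CPM.

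The genes, lists and tests were chosen with earlier results of these data known. Named are every gene called in a naphthalene comparison, per arm the member of smallest p for either direction and the 2 of highest mean level, up to 10 called genes by p in other comparisons, and Scd1; a few further members were named after their values were seen. Sequences come from RefSeq's GRCm38.p6 promoter table, of another build than the notes name, and were matched by symbol. Genes that share reads with close copies, such as Scd1 with Scd2, depend on a counting program that is not known. The values of 1 gene of the other lipid synthesis list are not reported here.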

Additional observations from a re-analysis of the deposited data

Results flagged for a closer look

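The effect of naphthalene on Scd1 differed between days. The log2 change, averaged over the genotypes, was 0.25 ± 0.27 at day 2 and 2.23 ± 0.29 at day 5, and the test of the difference itself gave 1.98 ± 0.39 (edgeR, adjusted p = 0.0117). It was called in all 24 fits that left out 1 library. At day 5, 5 of 6 treated mice lay above every untreated mouse, and at day 2 the treated and untreated mice overlapped. The library letter also differs between the treated mice of day 2 and those of day 5, and its part was not tested.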

How the results depend on the processing

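Scd1 at day 5 averaged over the genotypes kept its call under each alternative tried, with log2 changes of 2.06 to 2.45 when 1 library was left out. Counts of called members moved by more than 1.5 times as follows. Fitting the compared groups alone gave 1 call in control mice at day 2 (3 in the fit of all groups), 1 in control mice at day 5 (against 2), 0 in KO mice at day 5 (against 2), 5 on average at day 5 (against 10) and 1 on average at day 7 (against 0). DESeq2 gave 5 in control mice at day 2, 9 in control mice at day 5 and 3 in untreated mice between days 2 and 5 (against 0). Without a filter on low counts there were 10 calls in control mice at day 5, 4 in KO mice at day 5, 1 in KO mice at day 2 and at day 7 and on average at day 7, 3 for the change from day 2 to 5, 1 for the change from day 5 to 7, 3 in untreated mice between days 2 and 5, 1 for KO against control mice over all groups and 1 for the treated mice of day 7. The cause was not tested. Replicate numbers share only a number (correlations of deviations from -0.305 to 0.398), and with the replicate block 1 member was called in control mice at day 5 and 1 in untreated mice between days 2 and 5. Leaving out 1 library at a time gave 4 to 7 calls on average at day 2, 4 to 16 at day 5 and 0 at day 7; 0 to 2 in control mice at day 2, 1 to 14 at day 5 and 0 at day 7; 0 to 8 in KO mice at day 5 and 0 at days 2 and 7. The change from day 2 to 5 had 1 to 2 and that from day 5 to 7 had 0, untreated mice had 0 to 3 (day 2 to 5), 6 to 15 (day 5 to 7) and 13 to 17 (day 2 to 7), and genotype comparisons had 0. In the same fits the calls over all genes at day 5 ranged from 556 to 4073 on average. They ranged from 23 to 3544 in control mice and from 68 to 901 in KO mice. The difference between the arms ranged from -0.07 to 0.08 at day 2, 0.25 to 0.37 at day 5 and -0.09 to 0.11 at day 7, and with the median log2 CPM over genes in place of the mean of each library it was -0.21 at day 2 and -0.18 at day 7. DESeq2 size factors shifted the median of all genes by at most 0.02. On simulated data the fit missed part of the 2-fold changes, recovering 82% on average at day 5 and 55% in control mice alone. Smaller changes were not simulated. The simulation drew each gene independently, without differences that the genes of a mouse share.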

Other observations

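Of 18 genes of fatty acid oxidation, 1 rose at day 2 after naphthalene (Pdk4, a brake on glucose oxidation, by 1.47 ± 0.33, edgeR adjusted p = 0.00292) and 1 at day 5 (Acadvl, by 0.63 ± 0.20, adjusted p = 0.0474). These counts lie near the 5.6% and 4.34% of all genes called higher. In untreated mice between day 2 and day 7, when 11 of 18 sterol enzymes rose, 4 of these 18 fell and none rose, where 7.7% of all genes fell. Acadvl, which starts the oxidation of very long chains, fell by 0.93 ± 0.20 (adjusted p = 0.00258), and Cpt1a, the carnitine acyltransferase of the mitochondrial surface, had a change of -0.55 ± 0.15 (adjusted p = 0.0129).

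Of 14 genes for the handling of surfactant phospholipid, 4 rose at day 5 after naphthalene (Mfsd2a, Fabp5, Pcyt1b and Abca3; Abca3 is also among the alveolar type 2 markers), where 4.34% of all genes rose. Mfsd2a, a lysophospholipid transporter, rose by 2.94 ± 0.38 (adjusted p = 9.03e-06) at a mean of 1.84 CPM, and Fabp5, a fatty acid binding protein, by 1.15 ± 0.26 (adjusted p = 0.00674). Among 13 targets of the sterol sensor LXR and genes of sterol export, Npc2, a carrier of cholesterol out of lysosomes, rose at day 2 (0.64 ± 0.19) and at day 5 (0.81 ± 0.19, adjusted p = 0.00944). Ch25h, which makes 25-hydroxycholesterol, rose by 1.06 ± 0.26 at day 2 (adjusted p = 0.00532). No other gene of the 13 was called at day 2 or day 5, where 5.6% and 4.34% of all genes rose. Those not called lay on both sides of 0 at day 5, from Abca1 (-0.56 ± 0.19, adjusted p = 0.0691) to Apoc1 (0.53 ± 0.23, adjusted p = 0.141).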
